A study of Mus musculus with 10 samples.

Results

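Effector cytokine genes encode the secreted proteins with which activated T cells act on other cells. The 10 genes described here were Il2, Il21, Ifng, Il4, Il13, Il5, Il17a, Il17f, Csf2 and Il3, and they were taken from 21883 protein-coding genes of the mouse. The protein mapped in these cells was p65 (RelA), which forms part of NF-kB dimers, and it was mapped by ChIP-seq, the sequencing of DNA fragments that an antibody pulls down with their bound protein. A p65 region belonged to a gene when its summit, the point of strongest signal, lay inside the gene, or within 50 kb of it with no other protein-coding gene body nearer. By this rule the 10 genes held 9 of the 22980 regions of the 4 deposited lists, with 5 in stimulated Treg, 4 in stimulated Tconv and 0 in either unstimulated list.

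The T cells came from spleens and lymph nodes of C57BL/6 mice and were regulatory T cells (Treg), which restrain immune responses, or conventional T cells (Tconv). The 4 groups were Treg kept 3 h on plates with bound anti-CD3, together with anti-CD28 in solution and IL-2 at 10 ng/ml, Tconv given both antibodies for 3 h with IL-2 at 2 ng/ml, unstimulated Treg and unstimulated Tconv. The higher IL-2 concentration always went with Treg, so cell type and IL-2 cannot be told apart, and for unstimulated cells the culture is not stated. No source used here states how many mice stood behind a library. Each group had 2 libraries, which the authors pooled into 1 peak list, so no value has a spread between replicates and no test between groups was possible. Peak lists hold no expression values, so the cell type labels could not be checked against marker RNA.

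NF-kB dimers are held in the cytoplasm of resting cells by inhibitors of the IkB family and enter the nucleus when the T cell receptor and CD28 are engaged. NF-kB, NFAT and AP-1 factors are known to bind the Il2 promoter together in activated T cells, while in Treg the factor Foxp3 represses Il2. Transcription of Ifng and of the Il4, Il13 and Il5 cluster is known to depend also on enhancers that lie far from the promoters, and a control region of that cluster lies inside the neighbouring gene Rad50.

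After stimulation, p65 regions were found at 3 of the 10 genes, Ifng, Il2 and Il21, and at none of Il4, Il13, Il5, Il17a, Il17f, Csf2 and Il3, which had no region in any list. Stimulated Treg had regions at 2 of the 10 genes, where 25.2% of all protein-coding genes had one. Stimulated Tconv had regions at 3 of the 10, where 16.5% of all genes had one. In unstimulated Treg 0 of the 10 genes had a region and 13.4% of all genes did, and in unstimulated Tconv 0 of 10 against 12.5%. With 10 genes, these counts lie close to the shares over all genes, and no excess or lack of bound members can be read from them. The territory of a gene, meaning the stretch within 50 kb in which it is the nearest gene body, differed between members, with 16.7 kb for Il4, 17.1 kb for Il13, 28.0 kb for Il3, 33.5 kb for Il5 and 38.3 kb for Il17f. It was 58.3 kb for Il2, 60.3 kb for Csf2, 75.0 kb for Il17a, 96.3 kb for Il21 and 104.9 kb for Ifng, so that Il21 and Ifng had the widest territories, while Csf2 and Il17a had none of the regions in territories wider than that of Il2.

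**Figure D1:**
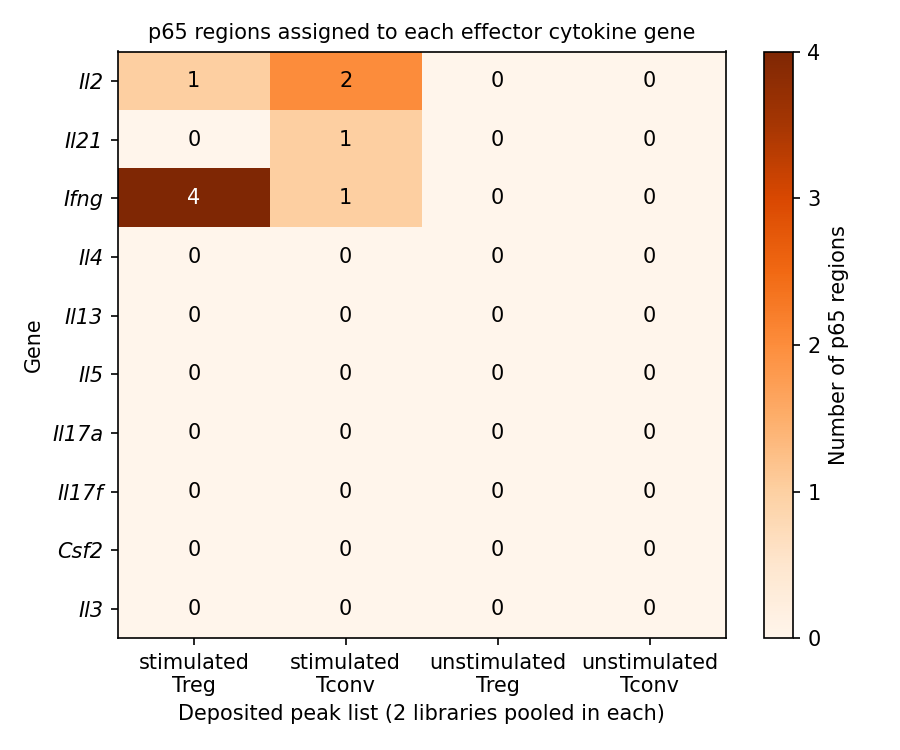
Number of p65 regions assigned to each effector cytokine gene (rows) in each deposited list (columns), with the number printed in each cell and shown by colour from 0 to 4. Ifng had 4 regions in stimulated Treg and 1 in stimulated Tconv, Il2 had 1 and 2, Il21 had 0 and 1, and the other cells are at 0.

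The 9 regions made up 7 distinct sites, of which 2 were in both stimulated lists, 3 in stimulated Treg alone and 2 in stimulated Tconv alone. The summit of 1 site lay inside a member gene, in Ifng, and the summits of the other 6 lay outside gene bodies at distances of 11.4 to 31.2 kb. In the whole lists, summits more than 10 kb from every gene body made up 18.4% of stimulated Treg regions, 16.2% of stimulated Tconv regions, 6.39% of unstimulated Treg regions and 6.08% of unstimulated Tconv regions. These shares are per list, whereas the sites were merged over lists. The bodies of Ifng, Il2 and Il21 fill 4.85, 5.24 and 9.88 kb of territories of 104.9, 58.3 and 96.3 kb. No excess of distant sites can therefore be read from these values. None of the 5 stimulated Treg regions had an overlapping region in unstimulated Treg, where 77.3% of all stimulated Treg regions had none. Likewise none of the 4 stimulated Tconv regions had one in unstimulated Tconv, where the share over all regions was 67.4%.

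**Figure D2:**
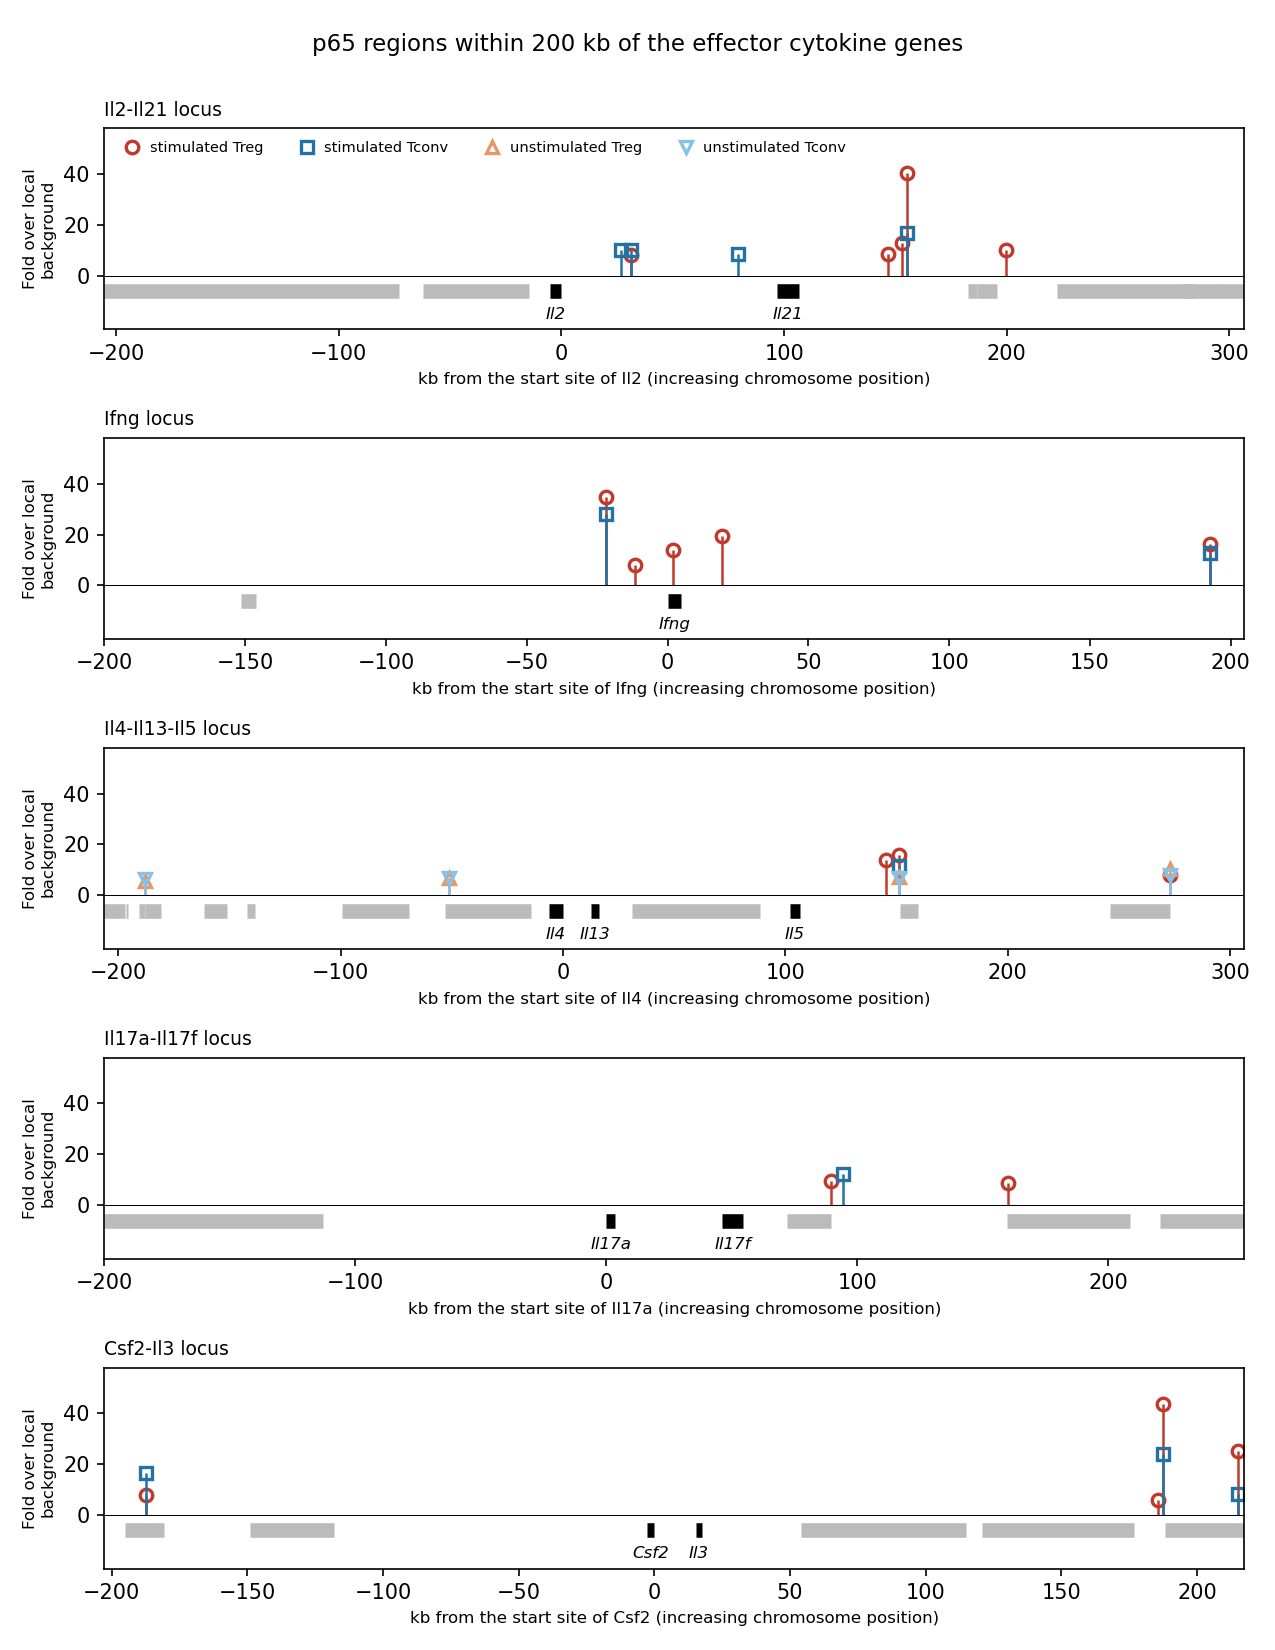
Fold enrichment of the p65 summit over its local background (vertical axis), the authors' value, for each region within 200 kb of the members, by distance in kb from the start site of the first gene of each panel, with symbols for the 4 lists, black bars for members and grey bars for other protein-coding genes. Both stimulated lists have regions within 50 kb of Il2, Il21, Ifng, Il5 and Il17f, those near Il5 and Il17f being nearer to other genes. Csf2 and Il3 have none nearer than 168.3 kb.

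Ifng encodes interferon gamma, the cytokine by which type 1 helper cells activate macrophages. It lies on chromosome 10 from 118441046 to 118445894 of mm10, on the plus strand. In stimulated Treg it had 4 regions, against 1 in stimulated Tconv and 0 in both unstimulated lists. The region in both stimulated lists lay 21.8 kb upstream of the start site. In stimulated Treg it ran from 118418342 to 118419850 and reached 34.7-fold over the local background, with a −log10 p of 384.2, by which it ranked 399 of 11077 (1 being the strongest). In stimulated Tconv it ran from 118418609 to 118419800 and reached 28.0-fold, with a −log10 p of 308.3 and rank 159 of 5734. The summits were 18 bp apart, and this site stood in the strongest 3.6% of the stimulated Treg list and the strongest 2.77% of the stimulated Tconv list.

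The other 3 Ifng sites were in stimulated Treg alone. One lay inside the gene, from 118442531 to 118443493, with its summit 2.07 kb after the start site, at 13.9-fold and a −log10 p of 104.2. A second lay 19.4 kb after the start site and 14.6 kb past the end of the gene, from 118460081 to 118462077. This was the widest of the member regions at 1997 bp and held 2 deposited summits, the stronger at 19.5-fold with a −log10 p of 125.3 and the weaker 20.5 kb after the start site at 10.4-fold with 48.9. The third lay 11.4 kb upstream, from 118429234 to 118429899, and was weak, at 7.85-fold and a −log10 p of 31.3, rank 9811 of 11077. The stimulated Tconv list ended at a −log10 p of 38.1 and the stimulated Treg list at 26.6, so the value of this last site lay below the Tconv limit. The gene body and 19.4 kb sites were well above that limit, though −log10 p also grows with library depth, which is unknown here. Among 5686 genes with a region in a stimulated list, 10.1% had at least 4 in stimulated Treg, and 56.3% had more in stimulated Treg than in stimulated Tconv.

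Il2, which encodes the growth factor IL-2 of activated T cells, showed the opposite order of region numbers, with 1 in stimulated Treg and 2 in stimulated Tconv. Of the 5686 genes, 3.8% had fewer regions in stimulated Treg than in stimulated Tconv. The gene lies on chromosome 3 from 37120713 to 37125954, on the minus strand. The site in both lists lay 31.2 kb upstream of its start, from 37156947 to 37157584 in stimulated Treg, at 8.07-fold with a −log10 p of 30.4 and rank 9942 of 11077. In stimulated Tconv it ran from 37156834 to 37157608, at 10.04-fold with a −log10 p of 42.2 and rank 5098 of 5734, with the summits 41 bp apart. The second Tconv site lay 26.5 kb upstream, from 37151650 to 37153429, at 9.95-fold with a −log10 p of 50.4 and rank 4169. It had no counterpart in stimulated Treg. Its −log10 p lay above the 26.6 at which the Treg list ended, though values from libraries of unknown depth are not on a like footing. All 3 values lay in the weaker part of their lists, since the median region had 11.5-fold in stimulated Treg and 12.8-fold in stimulated Tconv. A long non-coding RNA gene, Gm36000, lay nearer to all 3 than Il2 did, 12.5 kb from the shared site.

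Il21, the gene of a cytokine of follicular helper T cells that acts on B cells, had 0 regions in stimulated Treg and 1 in stimulated Tconv. Of the members, 0 had the reverse pattern (listed after stimulation for Treg and not for Tconv), which 9.49% of all genes had. Il21 was 1 of 181 genes (0.827% of all) with a region in stimulated Tconv and none in stimulated Treg. Il21 lies on chromosome 3 from 37222759 to 37232636, on the minus strand, 96.8 kb from Il2. The Tconv region lay between both genes, from 37205118 to 37206331, 17.3 kb beyond the 3′ end of Il21. It was among the last of its list, at 8.57-fold with a −log10 p of 38.3 and rank 5719 of 5734, next to the list's minimum of 38.1. Another long non-coding RNA gene, Gm12532, lay slightly nearer to it, at 16.8 kb.

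A stronger p65 site stood on the other side of Il21 and was not assigned to it, because the gene Cetn4, which encodes a centrin, was nearer. This site lay 48.5 kb upstream of the Il21 start and 27.5 kb from Cetn4. It reached 40.3-fold in stimulated Treg (rank 299 of 11077) and 16.8-fold in stimulated Tconv (rank 936 of 5734). Stimulated Treg had 2 further regions beside it, 39.8 kb and 46.1 kb upstream of Il21, at 8.59-fold and 12.8-fold, with none in stimulated Tconv. Between Il2 and Il21 there were thus 2 sites of stimulated Tconv alone and 1 in both stimulated lists, and within 50 kb upstream of Il21 there were 2 sites of stimulated Treg alone and 1 in both. The nearest region of either unstimulated list lay 549 kb from Il2 and 651 kb from Il21.

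**Figure D3:**
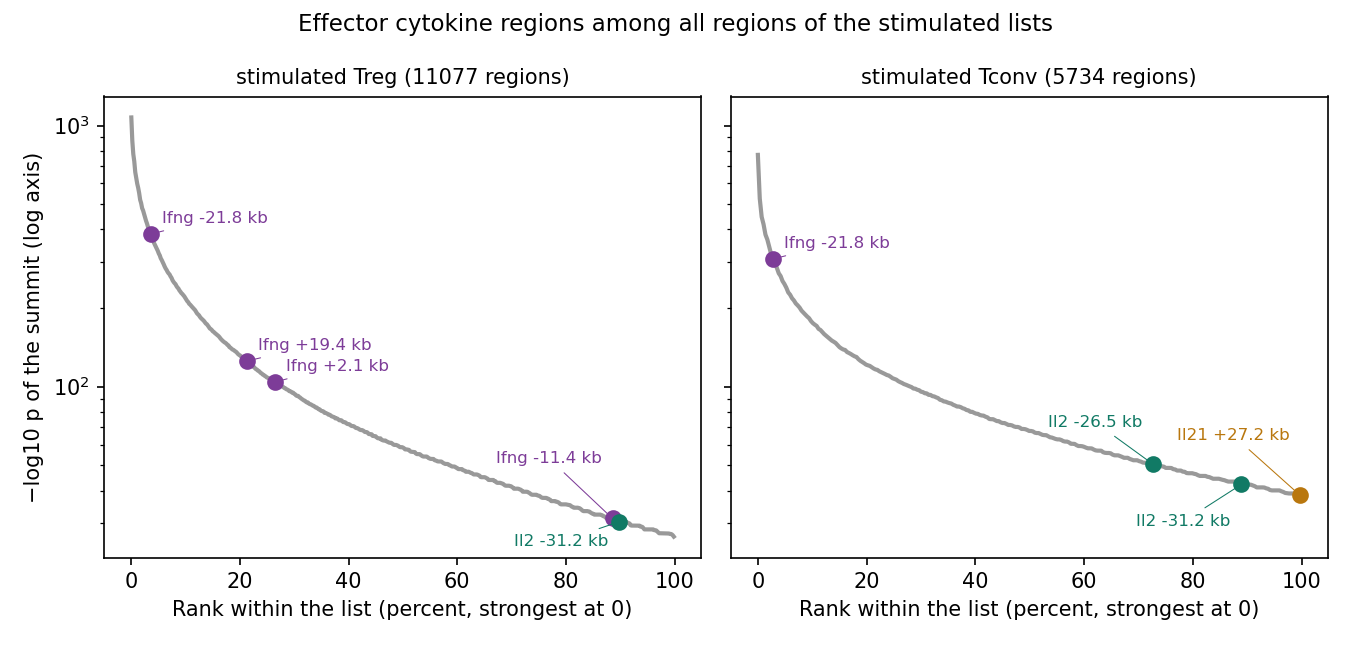
−log10 p of the summit (log axis) by rank within the list (percent, strongest at 0) for all regions of stimulated Treg (left) and stimulated Tconv (right), as grey curves, with the member regions as points labelled by gene and by distance from its start site (minus is upstream). The Ifng site at 21.8 kb lies near the top of both lists, at ranks 399 and 159, while the Il2 and Il21 sites lie between ranks 4169 and 5719 of 5734 in stimulated Tconv and at 9942 of 11077 in stimulated Treg.

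Between the stimulated lists, 3 of the 5 Treg regions of the members had no Tconv counterpart, all at Ifng, where 49.3% of all stimulated Treg regions had none. In the other direction 2 of the 4 Tconv regions had no Treg counterpart, 1 at Il2 and 1 at Il21, where the share over all stimulated Tconv regions was 4.15%. Weak regions were missing from the other list more often than strong ones, so each list was also cut into 10 bins of like size in order of −log10 p, after the data had been seen. In the bin that held the Il2 site at 26.5 kb, 8.2% of Tconv regions had no Treg counterpart, in that of the Il21 site 12.1%, and in the weaker 50% of the list 7.84%. In the bin of the Ifng sites in the gene body and at 19.4 kb, 26.4% of Treg regions had no Tconv counterpart, in that of the weak site at 11.4 kb 82.4%, and in the weaker 50% of the list 73.9%. The 2 Tconv sites without a counterpart were both weak and both lay between Il2 and Il21, with the shared Il2 site between them, and no test of their number was made. The share over all stimulated Tconv regions depended on list length, at 11.5% with a common −log10 p minimum and 31.3% with lists of equal length, where the 1 Tconv member region left, at Ifng, had a Treg counterpart.

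**Figure D4:**
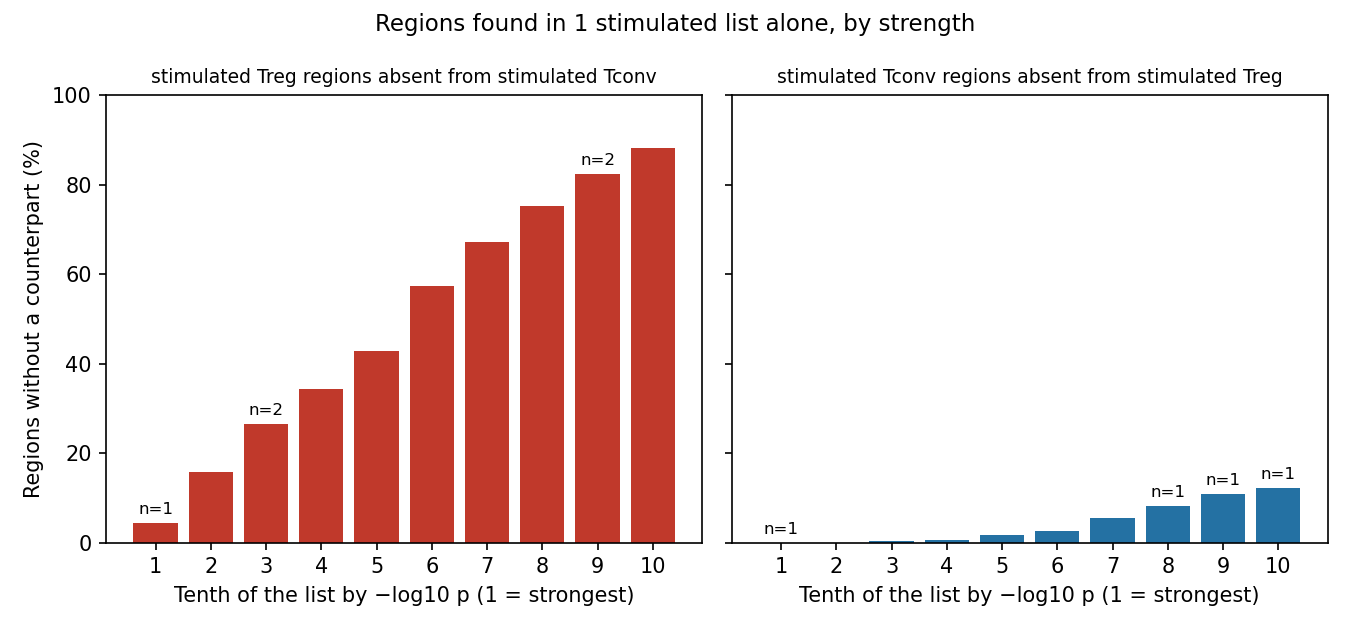
Share of regions without an overlapping region in the other stimulated list (%), by bin (10 bins of the list in order of −log10 p, 1 strongest), for stimulated Treg (left) and stimulated Tconv (right). Labels above bars give the number of member regions in that bin; the share climbs to 88.2% in the weakest Treg bin and to 12.1% in the weakest Tconv bin.

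No promoter of the members was overlapped by a listed p65 region in any of the 4 lists. Of 11 promoter windows (250 bases before to 50 bases after a start site, with 2 for Il4), 0 were overlapped in any list. Over the 21262 windows of protein-coding genes, 19.8% were overlapped in stimulated Treg, 13% in stimulated Tconv, 12.3% in unstimulated Treg and 11.5% in unstimulated Tconv. With 11 windows, no lack of promoter regions can be read from these counts. Each list is a conservative set, so a promoter without a listed region may still be bound. The sequences of the 250 bases before the start are given for the 3 genes with regions, to show the promoters that had no listed region while distal sites did. Sequences are from RefSeq on GRCm38.p6 (the coordinates of mm10), 5′ to 3′ in the direction of the gene, at chr3:37125955-37126204 for Il2, chr3:37232637-37232886 for Il21 (both minus strand) and chr10:118440796-118441045 for Ifng (plus strand). Capitals mark GGAAA on either strand, the core bound by NFAT factors.
Il2: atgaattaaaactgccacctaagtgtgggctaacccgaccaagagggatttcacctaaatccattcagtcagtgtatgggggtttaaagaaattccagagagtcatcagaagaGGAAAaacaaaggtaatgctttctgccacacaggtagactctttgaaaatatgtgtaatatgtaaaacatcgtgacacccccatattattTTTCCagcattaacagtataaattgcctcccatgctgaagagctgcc
Il21: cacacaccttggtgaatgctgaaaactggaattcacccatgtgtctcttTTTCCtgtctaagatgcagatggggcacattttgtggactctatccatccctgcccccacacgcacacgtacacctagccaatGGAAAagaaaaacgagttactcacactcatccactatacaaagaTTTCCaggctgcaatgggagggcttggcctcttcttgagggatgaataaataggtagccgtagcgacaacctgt
Ifng: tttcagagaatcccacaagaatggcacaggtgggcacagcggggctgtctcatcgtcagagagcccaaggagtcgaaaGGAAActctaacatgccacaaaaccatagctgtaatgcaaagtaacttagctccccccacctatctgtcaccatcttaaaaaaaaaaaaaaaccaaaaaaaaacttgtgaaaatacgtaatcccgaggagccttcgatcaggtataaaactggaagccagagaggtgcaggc

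GGAAA was present in 9 of the 11 member windows and in 54.6% of all windows. The 10-letter kappaB consensus and the 9-letter form GGGNNTTCC were found in 0 of the 11, against 7.91% and 5.41% of all windows, and the AP-1 motif TGANTCA was found in the Il17a window alone, against 6.13%. Each was searched on both strands. With 11 windows, 0 lies close to the shares of the 2 kappaB forms. A site that departs from these letters was not counted, so 0 does not show that a promoter, such as that of Il2, lacks kappaB sites. The kappaB-type form GGANNTTCC was found in 2 of the 11 windows, those of Il13 and Il3, against 3.62% of all windows, and the same search covered both strands. With 11 windows, no excess of this form or of GGAAA can be read from these counts. The form GGANNTTCC can overlap GGAAA, as it does in the Il13 window. These 2 promoters are given because they hold a match to this form while no list has a region within 50 kb assigned to either gene. They lie at chr11:53634703-53634952 for Il13 and chr11:54267280-54267529 for Il3, both on the minus strand, with the GGANNTTCC match in capitals.
Il13: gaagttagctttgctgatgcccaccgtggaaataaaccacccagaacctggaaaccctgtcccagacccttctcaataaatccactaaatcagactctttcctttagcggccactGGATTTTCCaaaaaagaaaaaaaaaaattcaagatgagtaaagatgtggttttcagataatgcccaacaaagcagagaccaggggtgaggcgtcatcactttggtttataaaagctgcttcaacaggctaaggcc
Il3: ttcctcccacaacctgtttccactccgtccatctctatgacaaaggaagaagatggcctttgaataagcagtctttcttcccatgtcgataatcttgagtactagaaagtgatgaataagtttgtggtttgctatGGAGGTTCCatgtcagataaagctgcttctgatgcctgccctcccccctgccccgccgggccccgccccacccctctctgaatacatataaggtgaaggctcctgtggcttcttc

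Il4, Il13 and Il5 encode the cytokines of type 2 helper cells, of which IL-4 drives the class switch of B cells to IgE, IL-13 acts on mucus-producing epithelium and IL-5 on eosinophils. They lie on chromosome 11 from 53612460 to 53618665, from 53631323 to 53634702 and from 53720794 to 53725103, and Rad50 stands between Il13 and Il5. From the start of Il4 to the end of Il5, including all of Rad50, 0 regions were found in any list. In stimulated Treg the region nearest to the cluster lay 38.9 kb past Il5, at 14.0-fold, and belonged to Irf1, which encodes an interferon regulatory factor. In stimulated Tconv it lay 44.8 kb past Il5, at 11.6-fold, beside the edge of the same gene. This site was in all 4 lists, at 15.8-fold in stimulated Treg, 7.23-fold in unstimulated Treg and 6.86-fold in unstimulated Tconv. Nearest to Il4 was a site inside Kif3a, a kinesin gene, 45.1 kb away. It was in unstimulated Treg (6.97-fold, −log10 p 23.8) and unstimulated Tconv (6.65-fold, −log10 p 20.2) and in neither stimulated list. Both −log10 p values lay below the 26.6 and 38.1 at which the stimulated Treg and Tconv lists ended. Neither stimulated list held an entry that weak, and −log10 p depends on the unknown library depth, so a loss after stimulation cannot be read from this site.

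Il17a and Il17f encode the cytokines of type 17 helper cells that recruit neutrophils, and they lie on chromosome 1 from 20730905 to 20734496 and from 20777146 to 20785274. The nearest region in stimulated Treg was 35.1 kb from Il17f, on the upstream side of this minus-strand gene, at the edge of Mcm3, a gene of the replicative helicase (9.71-fold). In stimulated Tconv it was 39.9 kb from Il17f on the same side, 4.91 kb outside Mcm3 (12.2-fold). These were separate sites, each in 1 list. Csf2 and Il3 encode growth factors of myeloid cells, GM-CSF and IL-3, and lie on chromosome 11 from 54247270 to 54249899 and from 54265085 to 54267279. They were the most isolated members in the stimulated lists, with the nearest region of Csf2 184.6 kb away inside Pdlim4 in both lists, at 7.74-fold in Treg and 16.7-fold in Tconv. From Il3 the nearest region was 168.3 kb away in stimulated Treg (6.04-fold) and 170.2 kb away in stimulated Tconv (23.9-fold), both beside Fnip1.

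Among 37 other genes for secreted cytokines, counted by the same rule, 10 (27%) had a region in stimulated Treg and 7 (18.9%) in stimulated Tconv. In unstimulated Treg 4 (10.8%) had one, and in unstimulated Tconv 2 (5.41%). The shares over all protein-coding genes were 25.2%, 16.5%, 13.4% and 12.5% in the same order. With 37 genes, no excess or lack can be read from these counts. Their strongest regions in stimulated Treg were near or inside the gene for Tnf (81.2-fold), Lif (45.1-fold), Ltb (31.1-fold), Tgfb1 (26.9-fold) and Il16 (20.02-fold), whereas those of Il10 (25.5-fold) and Il1rn (23.9-fold) lay 26.0 kb and 8.01 kb away. Lta (24.6-fold), Il9 (13.3-fold) and Osm (9.88-fold) were the others. In stimulated Tconv, Tnf reached 50.9-fold, Lif 24.4-fold and Ltb 23.9-fold. Lta, Ltb, Tgfb1 and Il16 also had a region in unstimulated Treg, and Lta and Ltb also in unstimulated Tconv. The members had 0 in both, which with 10 genes cannot be read as a difference from the other cytokine genes. Il10, which encodes an inhibitory cytokine of Treg, had 6 regions in stimulated Treg and 0 in stimulated Tconv. Il1rn and Osm, with 1 and 0 each, showed the same order, as did 9.49% of all protein-coding genes. The stimulated Treg list was longer (11077 regions against 5734) and reached a lower −log10 p (26.6 against 38.1). At a common minimum of 38.1, 10 of the 37 genes still had a region in stimulated Treg and 7 in stimulated Tconv. Whether Il10 differed between the cell types was not tested.

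Region numbers of 4, 1, 0 and 0 in stimulated Treg, stimulated Tconv, unstimulated Treg and unstimulated Tconv, as at Ifng, were shared by 22 other genes. With ties broken by the strongest fold in stimulated Treg, the 3 nearest were Resf1 (34.8-fold), Capg (33.1-fold) and Rhof (37.4-fold), against 34.7-fold at Ifng. The numbers of Il2, 1, 2, 0 and 0, were shared by 9 other genes, of which Fhl3 (7.85-fold), Enthd1 (7.69-fold) and Tprg (7.23-fold) were nearest to the 8.07-fold of Il2. This likeness rests on 4 lists alone.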

How the data were processed

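Peaks of p65 came from 8 immunoprecipitated libraries in 4 groups of 2, alongside 2 input libraries of mixed chromatin. The submitters' processing notes list build mm10, MACS2 2.1.1.20160309, BWA 0.7.15-r1140 and Trim Galore 0.4.1. Per the labels, each list pools the replicates, leaves out blacklisted regions and is the conservative set of an IDR test (agreement of replicate peak ranks); settings and use of the input are not stated. The deposited fold is the authors' ratio of each summit over its local background, the −log10 p is the authors' deposited value, and the deposited score, which follows the −log10 p, and the q-values were not used. Read numbers, and so the depth of each library, are unknown, and a deeper library gives a higher −log10 p and a longer list.

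Overlapping entries were merged into regions with their strongest summit, and a counterpart was an overlap of at least 1 bp. Gene bodies of 21883 protein-coding genes and all sequences came from RefSeq (GRCm38.p6); no genome sequence was used, so the sequence under the regions was not analysed here. Every member is named. The 3 most alike genes of the 2 members with most regions, the other cytokine genes with a region in stimulated Treg, and neighbours that hold a strong region of a locus were named by rule; the neighbours nearest to a member were also named after their values were seen. Members, lists and settings were chosen with earlier results of these data known. Distances of 10 and 200 kb, every gene within 50 kb, all kinds of genes, a common −log10 p minimum, equal list lengths, the upper 50% of each list, unmerged entries and other overlaps were tried. Overlap was checked against bedtools, while a check of assignment at gene midpoints could not fail, because a midpoint lies inside its gene. Python 3.11.15 and pandas 2.3.3 were used.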

Additional observations from a re-analysis of the deposited data

How the results depend on the processing

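No paired analysis was possible because the deposited lists pool the replicates of each group, so leaving out 1 library was not possible either. Of 100 alternative values for 16 counts, 61 stayed within 1.5 times the reported count and 39 did not. Unmerged entries, reciprocal overlap of 50%, a counterpart within 1 kb and a distance of 200 kb moved no count by over 1.5 times, though reciprocal overlap put the share of all stimulated Tconv regions without a stimulated Treg counterpart at 12.3%, against 4.15%.

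At a distance of 10 kb, 1 member (Ifng) with 1 region was left in stimulated Treg, without a counterpart in stimulated Tconv or unstimulated Treg, and 0 members and 0 regions were left in stimulated Tconv. With every gene within 50 kb, both stimulated lists had a region at 5 members, Il5 and Il17f being added to Ifng, Il2 and Il21. Stimulated Treg then had 11 member regions (10 without a counterpart in unstimulated Treg, 7 without one in stimulated Tconv) and stimulated Tconv had 7, and each unstimulated list had 2 members (Il4 and Il5) and 2 regions. With all kinds of genes, 1 member (Ifng) was left in each stimulated list, because long non-coding RNA genes, Gm36000 and Gm12532, lay nearer to the Il2 and Il21 sites.

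At a common −log10 p minimum of 38.1, stimulated Treg had 1 member (Ifng) and 3 regions, all 3 without a counterpart in unstimulated Treg (87.4% of all regions) and 2 without one in stimulated Tconv (38.1% of all). Of the 4 stimulated Tconv member regions, 3 then had none in stimulated Treg (11.5% of all), since the Treg region at the shared Il2 site fell below the minimum. Of the 37 other cytokine genes, 0 then had a region in unstimulated Tconv. In the upper 50% of each list, stimulated Treg had 1 member (Ifng) with 3 regions, of which 3 had no counterpart in unstimulated Treg (84.7% of all regions) and 2 had none in stimulated Tconv (51.2%). Stimulated Tconv then had 1 member (Ifng) with 1 region, of which 1 had no counterpart in unstimulated Tconv (76.3% of all) and 0 had none in stimulated Treg (7.21%). With equal lengths of 3132 entries, stimulated Treg had 1 member (Ifng) and 2 regions, of which 2 had no counterpart in unstimulated Treg (76.1% of all) and 1 had none in stimulated Tconv (30.2%). Stimulated Tconv then had 1 member (Ifng) and 1 region, of which 1 had no counterpart in unstimulated Tconv (63.4% of all) and 0 had none in stimulated Treg (31.3%). Ifng in stimulated Treg was called under every setting run, whereas the Il2 region of stimulated Treg was lost under each of the 3 stricter thresholds, and the Il2 and Il21 regions of stimulated Tconv under 2 of them, equal lengths and the upper 50%.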

Other observations

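Far downstream of Ifng, 187.8 kb past its end in stimulated Treg and 187.7 kb in stimulated Tconv, a further p65 site was in both stimulated lists, at 16.3-fold and 12.9-fold, and had no protein-coding gene within 50 kb. It was in neither unstimulated list. Within 200 kb of the Il4, Il13 and Il5 cluster there were 3 regions in stimulated Treg, 1 in stimulated Tconv, 4 in unstimulated Treg and 4 in unstimulated Tconv. These counts are not on a like footing, because the unstimulated Treg and Tconv lists reached down to a −log10 p of 15.1 and 13.3. The stimulated Treg and Tconv lists ended at 26.6 and 38.1, and the highest unstimulated Tconv value at this cluster was 32.8. In unstimulated Treg, the regions at Irf1 (38.6) and at the gene Slc22a5 (56.0) lay above both limits. The Slc22a5 site was also in stimulated Treg and unstimulated Tconv, but not in stimulated Tconv. At each of the other 4 loci both unstimulated lists held 0 regions. Besides the Kif3a site, a site at Uqcrq, a gene of the mitochondrial respiratory chain, was in both unstimulated lists and in neither stimulated list. It stood at 5.64-fold with a −log10 p of 16.7 in unstimulated Treg and at 6.28-fold with 18.4 in unstimulated Tconv. Like those of the Kif3a site, these −log10 p values lay below both stimulated limits, so a loss after stimulation cannot be read from them. Near Csf2 and Il3 the strongest site lay 170.2 kb from Il3, beside Fnip1, at 43.5-fold in stimulated Treg and 23.9-fold in stimulated Tconv.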
